A study of Mus musculus with 6 samples.

Results

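Nebulin (Neb) and 5 further genes of sarcomeric or actin-capping proteins, Nebl, Ttn, Actn2, Tmod1 and Tmod2, were examined in the embryonic mouse forebrain with and without the transcription factor genes Dlx1 and Dlx2. The 6 genes were the rows of the deposited table with these symbols, out of 55416 genes, and all 6 passed the filter on low counts. Neb was chosen by its lower counts in the double knockout, and the list was drawn up with this comparison in view. The differences between genotypes for the 6 genes are therefore given as a description, with no test. The question was whether the fall of Neb was shared by other genes of the thin filament and the sarcomere.

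The libraries were made from total RNA, depleted of ribosomal RNA, of the ganglionic eminences of mouse embryos, aged E13.5 (in days). These are the ventral forebrain swellings in which striatal and interneuron precursors arise. A group of 3 libraries came from Dlx1/Dlx2 double knockout embryos and a group of 3 from wild-type littermates, and the labels name no other allele or treatment. The labels do not say whether a library was made from 1 embryo or several, so the tests measure the spread between these libraries, which may be partly technical. Total counts ranged from 56618090 to 70114173 reads. On counts scaled by library size alone to CPM, a floor of 3 reads lay between 0.0428 and 0.053, a limit for counting error only. With trimmed mean of M values (TMM) scaling, Dlx1 ranged from 434.0 to 445.7 CPM in wild-type libraries and from 74.9 to 94.04 in double knockout libraries. Dlx2 ranged from 281.8 to 313.3 against 7.50 to 10.99 CPM, so each library matched its label. The summed level of 4 Y-linked genes, scaled by library size alone, was 206.5 to 213.9 CPM in 1 wild-type and 2 double knockout libraries. It was 0.0154 to 0.168 CPM in the other 3.

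In striated muscle, actin thin filaments are anchored in the Z-disc, where alpha-actinin cross-links them. Nebulin lies along the thin filament and sets its length, tropomodulin caps the pointed end, and titin runs from the Z-disc to the M-band in the middle of the sarcomere. Several of these proteins have relatives outside muscle. The nebulette gene also encodes a LIM-domain form found in non-muscle cells, alpha-actinin-2 occurs in neurons at dendritic spines, tropomodulin 1 caps the short actin filaments of the red cell membrane, and tropomodulin 2 is the neuronal tropomodulin.

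Neb (ENSMUSG00000026950), which encodes nebulin, was at about 1 in 6 of its wild-type level in the double knockout. The wild-type libraries held 1104, 1010 and 1033 reads of Neb, or 18.8, 15.7 and 16.1 CPM with TMM scaling. The double knockout libraries held 178, 174 and 187 reads, or 2.74, 3.02 and 2.70 CPM. Every double knockout library was far below every wild-type library, and reads of Neb remained in all 3. The means were 16.9 ± 1.70 and 2.82 ± 0.174 CPM (SD, n = 3), so that 16.7% ± 1.03 of the wild-type mean was left, a 5.99-fold difference. The log2 fold change was -2.58 (SE 0.111). Ordered by the size of the fall, Neb stood at place 23 of the 317 genes called lower in the double knockout, where a call is an adjusted p under 0.05 by the quasi-likelihood test of edgeR. Among the 297 of these whose mean reached 1 CPM it stood at place 15. Neb was chosen for its fall, so both places are only a description. Only 45 bases of its exons overlap another annotated gene, the antisense model Gm13522, which had 0 to 2 reads per library. In bulk tissue, fewer cells that express a gene and less of its RNA per cell cannot be told apart.

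Nebl (ENSMUSG00000053702) encodes nebulette, the closest relative of nebulin on the list, which binds actin through the same kind of repeat. Its wild-type libraries were at 10.1, 8.45 and 9.27 CPM and its double knockout libraries at 9.80, 7.75 and 6.91 CPM. The groups overlapped, with double knockout replicate 1 above 2 of the wild-type libraries. The log2 fold change was -0.19 (SE 0.141), with a 95% interval from -0.51 to 0.14. The interval of Neb, from -2.84 to -2.33, lay wholly below it. Neb was chosen for its fall, so the intervals are set side by side only as a description. The value for Nebl was -0.34 without double knockout replicate 1 and -0.07 without double knockout replicate 3.

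Ttn (ENSMUSG00000051747) encodes titin, the elastic filament that spans the sarcomere from Z-disc to M-band. It was at 3.58, 3.24 and 2.51 CPM in the wild type and at 3.79, 3.94 and 2.02 CPM in the double knockout. Double knockout replicates 1 and 2 held the highest values and replicate 3 the lowest of all 6. The log2 fold change was 0.06 (SE 0.257), with a 95% interval from -0.53 to 0.65. Its sign depended on single libraries: it was 0.32 without double knockout replicate 3 and -0.10 without double knockout replicate 2. Without wild-type replicate 3 or double knockout replicate 1 it was -0.07.

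Actn2 (ENSMUSG00000052374), which encodes the Z-disc cross-linker alpha-actinin-2, was scarce. The wild-type libraries held 90, 37 and 37 reads, and the double knockout libraries held 28, 47 and 24. The groups overlapped, and wild-type replicate 1 was well above the other 5 libraries. The means were 0.896 ± 0.554 and 0.531 ± 0.250 CPM (SD, n = 3), and the log2 fold change was -0.76 (SE 0.474), with a 95% interval from -1.84 to 0.32. Without wild-type replicate 1 it was -0.13. It was -1.20 without double knockout replicate 2, and -0.52 without double knockout replicate 3.

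The tropomodulin genes differed widely in level. Tmod1 (ENSMUSG00000028328), the tropomodulin of muscle and red cells, had 19, 8 and 28 reads in the wild type and 4, 26 and 12 in the double knockout. Both groups spread over the same range, and the log2 fold change of -0.39 had an SE of 0.679 and a 95% interval from -1.94 to 1.16. The difference of -2.58 seen for Neb, a gene chosen for its fall, lay outside this interval, which is no test. The sign changed when wild-type replicate 3 (0.02) or double knockout replicate 1 (0.06) was left out, and the value was -1.30 without double knockout replicate 2 -0.76 without wild-type replicate 2 and -0.22 without double knockout replicate 3. Exons of Tmod1 share 1287 bases with Tstd2 on the opposite strand. Tstd2 had 2071 to 2614 reads per library, and whether reads were assigned by strand is not stated, so the few reads of Tmod1 are uncertain. Tmod1 is also a red cell gene, and the summed level of 13 erythroid markers overlapped between groups, at 119.1 to 148.6 CPM for wild-type and 109.9 to 172.2 for double knockout libraries. The part of red cells in the Tmod1 values was not tested.

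Tmod2 (ENSMUSG00000032186), the neuronal tropomodulin, was the most counted of the 6 genes. The wild-type libraries were at 621.4, 561.0 and 580.7 CPM and the double knockout libraries at 578.6, 547.8 and 454.6 CPM. The groups overlapped, and the lowest value was that of double knockout replicate 3. The log2 fold change was -0.16 (SE 0.0916), with a 95% interval from -0.37 to 0.05. It was -0.05 without double knockout replicate 3.

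**Figure D1:**
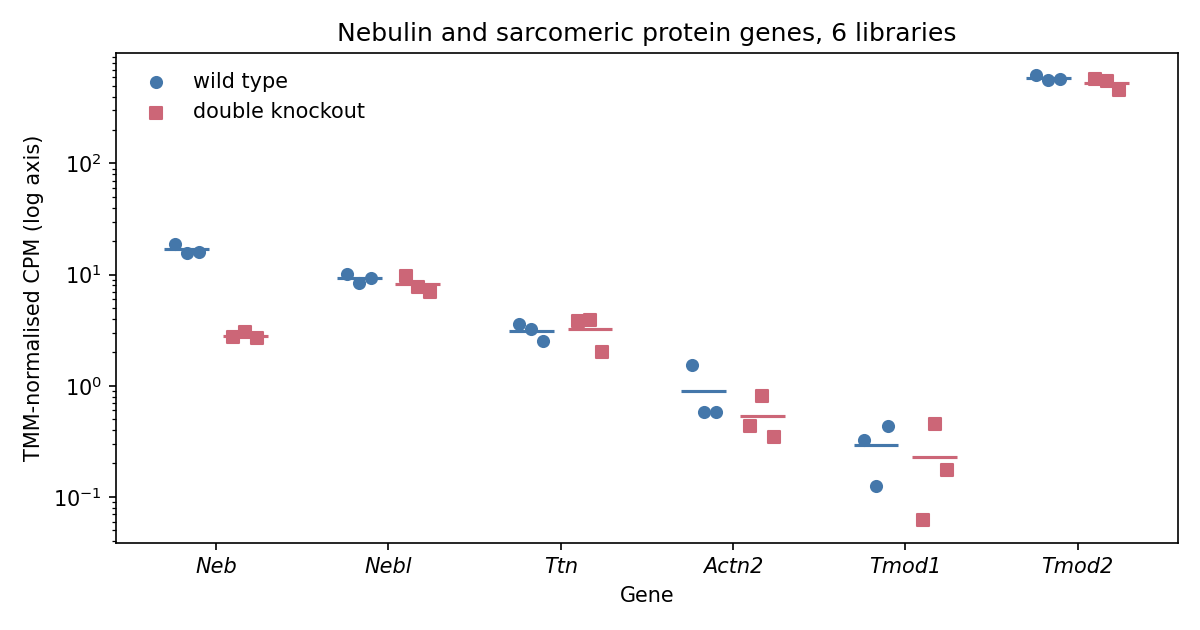
TMM-normalised CPM (vertical log axis) of the 6 genes (horizontal axis) in each library, with wild type as circles, double knockout as squares and short lines at group means. The 3 double knockout values of Neb, 2.70 to 3.02, lie below its 3 wild-type values, 15.7 to 18.8, while the groups overlap for the other 5 genes.

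Of the 6 genes, 1 was among those called different at an adjusted p under 0.05, where 2.68% of all tested genes were called, 1.34% higher and 1.34% lower. That gene was Neb, which had been chosen for its fall, so nothing is read from the count. The groups were separate for 1 of 6 members, again Neb, and for 19.5% of the 23628 genes tested. The median log2 fold change was -0.29 over the 6 members and 0.00 over all 23628 tested genes. Neb is among the 6, so nothing is read from this median either. None of the other 5 was called under the other settings tried. The intervals of Nebl, Ttn and Tmod2 reach down to -0.51, -0.53 and -0.37, whereas those of Actn2 and Tmod1, with at most 90 reads per library, reach down to -1.84 and -1.94. All 5 intervals lie above that of Neb. As Neb was chosen for its fall, this is a description and not a test.

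**Figure D2:**
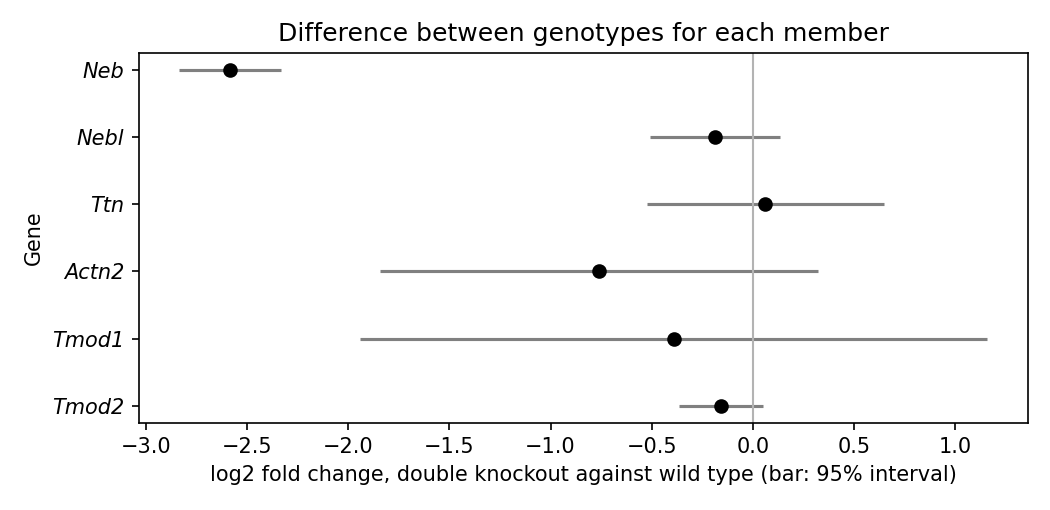
Log2 fold change of each member, double knockout against wild type (horizontal axis), with points for the fitted value and bars for its 95% interval. Neb lies at -2.58, and the bars of the other 5 genes include 0.

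Levels were compared between genes per kilobase of annotated exon. Tmod2 was highest in every library, at 48.02 to 53.2 CPM per kb in the wild type. Neb and Nebl came next and did not differ beyond their spread, at 0.635 ± 0.0641 and 0.609 ± 0.0543 CPM per kb (SD, n = 3). In the double knockout they were apart, at 0.106 ± 0.00655 and 0.535 ± 0.0976 CPM per kb, and Neb lay within the range of the level of Actn2, 0.0912 to 0.215. Actn2 was at 0.152 to 0.405 CPM per kb in the wild type, Tmod1 at 0.0315 to 0.111 and Ttn at 0.0215 to 0.0307, in the same order in all 3 libraries. These levels rest on all annotated exons of a gene, which no single transcript contains, and this weighs most on Ttn with its 116.8 kb.

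Other sarcomere genes were taken from 3 lists with 82 genes, of which 52 passed the filter on low counts. Of these 52, 1 was called higher and none lower, 1.92% against 2.68% of all tested genes, and 8 had an unadjusted p under 0.05. Their median log2 fold change was 0.04, with 28 above 0 and 24 below, and the lowest was -0.82. The other 30 genes were too scarce to test.

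The thin filament list held the remaining nebulin relatives, actins, tropomyosins, troponins, leiomodins, tropomodulins and capping proteins. None of its 18 tested genes was called by edgeR or DESeq2, and 3 had an unadjusted p under 0.05 in edgeR. The most counted were Lasp1, a LIM-domain relative of nebulin, and the barbed-end capping protein genes Capza2 and Capzb. Their log2 fold changes were -0.08 (SE 0.0443), -0.01 (SE 0.0443) and 0.03 (SE 0.0578). Nrap, the nebulin relative of developing myofibrils, had 16 to 32 reads per library and a log2 fold change of 0.14 (SE 0.303). Tmod3, the widely expressed tropomodulin, ranged from 65.5 to 69.3 CPM in wild-type and from 62.3 to 77.8 CPM in double knockout libraries.

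Of the 19 tested Z-disc genes, 1 was called, and it rose. Pdlim3, which encodes a PDZ and LIM domain protein that binds alpha-actinin-2, had 65, 63 and 48 reads in the wild type and 166, 144 and 138 in the double knockout. It went from 0.946 ± 0.183 to 2.35 ± 0.312 CPM (SD, n = 3), a log2 fold change of 1.31 (SE 0.202; edgeR adjusted p 0.0116). The call was lost without wild-type replicate 2 or double knockout replicate 1, with edgeR adjusted p of up to 0.053. The most counted genes of the list were Actn4 and Actn1, the non-muscle alpha-actinins, and Palld, an actin bundling protein, with log2 fold changes of -0.08, 0.10 and 0.29. With the replicate number as a block, Palld was called as well.

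None of the 15 tested thick filament and M-band genes was called by edgeR or DESeq2, and 0 had an unadjusted p under 0.05 in edgeR. Their most counted genes were Obsl1, Speg and Myh7b, which encode an obscurin relative, a titin-like kinase and a myosin heavy chain. Their log2 fold changes were 0.12 (SE 0.0524), -0.17 (SE 0.102) and 0.05 (SE 0.182). Of a further 20 genes for actin assembly and the membrane skeleton, all 20 were tested and none was called by edgeR or DESeq2, while 5 had an unadjusted p under 0.05 in edgeR. The most counted, Sptan1, Cfl1 and Sptbn1, encode spectrin chains and the filament-severing protein cofilin, and had log2 fold changes of -0.15, -0.09 and -0.03. Wasl, which encodes N-WASP, an actin nucleation factor that binds nebulin in muscle, averaged 88.4 CPM in wild-type and 89.8 CPM in double knockout libraries.

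**Figure D3:**
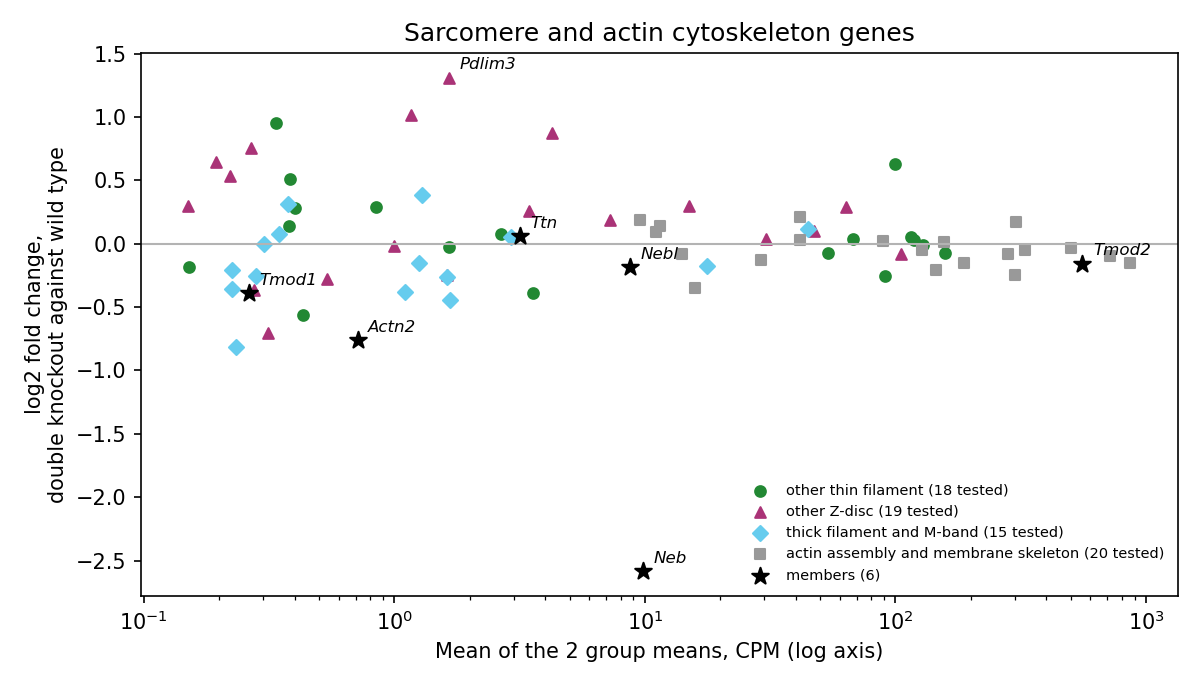
Log2 fold change, double knockout against wild type (vertical axis), against the mean level in CPM (horizontal log axis) for the tested genes of the 4 lists and the 6 members (stars). Neb at -2.58 lies below the other points, of which the lowest is at -0.82, and Pdlim3 is at 1.31.

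Muscle tissue was checked through its own markers. Of 13 skeletal muscle markers, 7 had at most 10 reads in every library, namely Myod1, Myf5, Myf6, Myog, Mymk, Ckm and Cacna1s, so the factors and the fusion gene that define skeletal muscle were near 0. The summed level of the 13 genes overlapped between groups, at 19.4 to 21.8 CPM against 18.2 to 21.2 CPM in the double knockout. Most of it came from the calcium release channel gene Ryr1, whose exons overlap the antisense gene Gm26604. Other markers of the list were also counted: Casq1 had 134 to 215 reads per library, Chrng 23 to 45, Atp2a1 17 to 39 and Chrna1 1 to 12. Of the 13 genes, 5 were tested and 1 was called. That gene was Chrnd, a subunit of the muscle acetylcholine receptor, with 0 reads in all 3 wild-type libraries and 37, 16 and 30 in the double knockout. Its level of 0.427 ± 0.146 CPM (SD, n = 3) was at least 8.33-fold higher than a floor of 3 reads per library. The summed levels of 8 cardiac markers, at 1.91 to 2.66 and 1.74 to 2.25 CPM, and of 10 smooth muscle and pericyte markers, at 80.6 to 97.6 and 84.6 to 100.1 CPM, also overlapped.

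Neuronal markers moved in the same direction as Neb. The summed level of 9 GABAergic neuron markers lay between 1051 and 1086 CPM in wild-type libraries and between 474.5 and 522.0 CPM in double knockout libraries, 46.7% of the wild-type mean, and 8 of the 9 were called lower. For 9 striatal neuron markers it was 1159 to 1217 and 705.7 to 798.5 CPM, or 63.0%, and 8 of the 9 were called lower. Earlier results of these data showed these falls, so they are no independent evidence. Of 7 cortical excitatory neuron markers, 1 was called lower, and their sum was at 79.3% of the wild-type mean. Of these 7, 6 had a log2 fold change below 0 and 6 had an unadjusted p under 0.05 in edgeR. For 5 of the 7, every double knockout library was below every wild-type library. Over all tested genes, 1.34% were called lower and 19.5% had separate groups in either direction. The level of Neb, at 16.7%, was further below its wild-type mean than any of these sums. The summed levels of 5 endothelial markers (107.1 to 122.3 against 113.3 to 131.8 CPM), 5 microglial markers (27.05 to 33.7 against 27.1 to 39.4 CPM) and 5 meningeal fibroblast markers (18.8 to 26.1 against 20.2 to 20.9 CPM) overlapped between wild type and double knockout, while that of 6 progenitor markers was 2217 to 2597 against 2621 to 3305 CPM. The part of cell composition in the fall of Neb was not tested.

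The genes most like Neb were sought by the root mean square difference of log2 CPM over the 6 libraries, after centring each gene on its wild-type mean, among tested genes whose mean reached 1 CPM. The closest was Dgkg, which encodes a diacylglycerol kinase, at a difference of 0.141 log2 units. Its wild-type libraries held 155, 140 and 153 reads and its double knockout libraries 28, 20 and 28. Next were Dlx6 (0.142), a Dlx family gene on chromosome 6, Sowaha (0.163), an ankyrin repeat gene, and Dlx1 itself (0.192). Slc32a1 (0.248), which encodes the vesicular GABA transporter, was the fifth. The log2 fold changes of these 5 genes were -2.60, -2.55, -2.77, -2.43 and -2.85. By the same measure the other members were at 1.43 (Actn2) to 1.85 (Ttn) from Neb, which mostly restates their smaller differences between genotypes. Opposite-strand genes overlap exons of Dgkg, Dlx6, Sowaha, Dlx1 and Slc32a1, and counts of these genes are uncertain to that extent. All 6 libraries enter this measure, and the difference between genotypes makes up most of it.

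**Figure D4:**
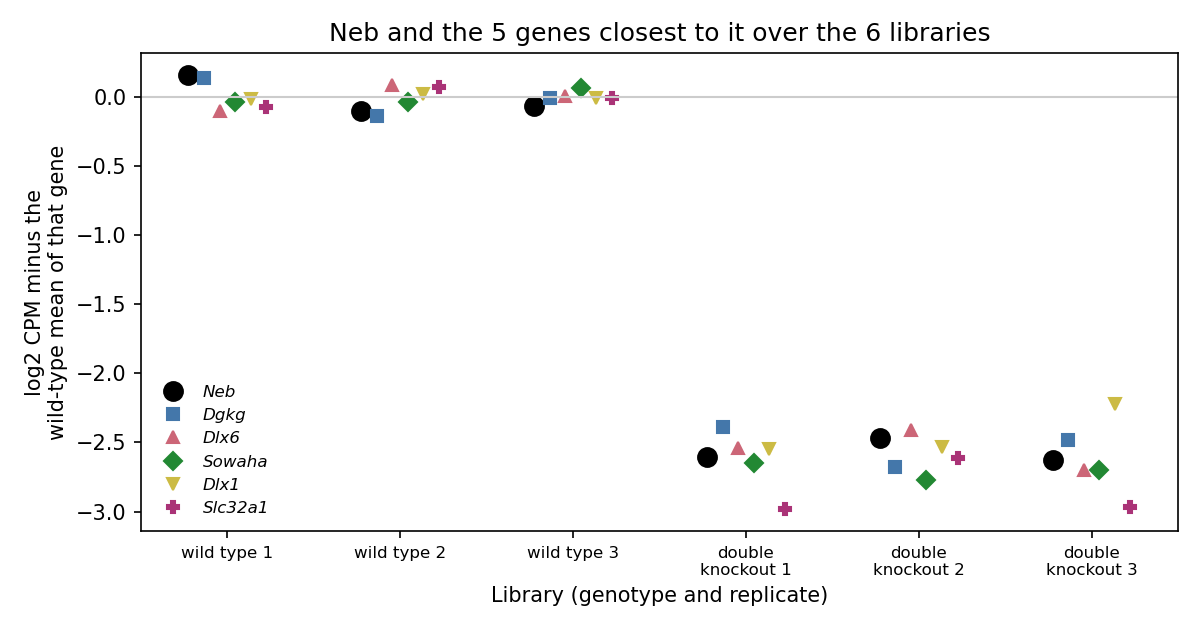
Log2 CPM minus the wild-type mean of each gene (vertical axis) in each of the 6 libraries (horizontal axis) for Neb (large circles) and the 5 closest genes, with points set side by side within a library. All 6 genes lie near 0 in the wild type and between -3 and -2 in the double knockout.

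Neb, Nebl and Ttn lie on chromosome 2, as do Dlx1 and Dlx2, whereas Actn2, Tmod1 and Tmod2 lie on chromosomes 13, 4 and 9. In the order of the 1738 tested genes on chromosome 2, 113 genes lie between Neb and the Dlx pair, 50 between Ttn and the pair and 525 between Nebl and the pair. The tested genes next to Neb were Rif1, a DNA repair and replication timing gene, and Arl5a, a small GTPase gene. Rif1 ranged from 162.8 to 181.8 CPM in wild-type libraries against 182.6 to 201.0 in double knockout libraries. Its log2 fold change was 0.12 (SE 0.0602), and Arl5a had a log2 fold change of -0.09 (SE 0.058). Neither was called, so the fall of Neb was not found in either flanking gene. Ttn was nearer to the Dlx pair than Neb in this order, and its log2 fold change was 0.06. Other genes nearer than Neb did differ: of the 200 tested genes nearest to the pair, 5 were called lower and 7 higher.

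Called genes made up 6% of the 200 tested genes nearest to Dlx1 and Dlx2 (7 higher, 5 lower). In the next 200, to which Neb belongs, they made up 7.5% (7 higher, 8 lower). These 8 include Neb itself, which was chosen for its fall. The 5 include Dlx1as, whose exons overlap those of Dlx1 on the opposite strand. They made up 2.84% of the rest of chromosome 2 and 2.62% of the tested genes on the other chromosomes. The part of position on the chromosome of the deleted genes in the fall of Neb was not tested.

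**Figure D5:**
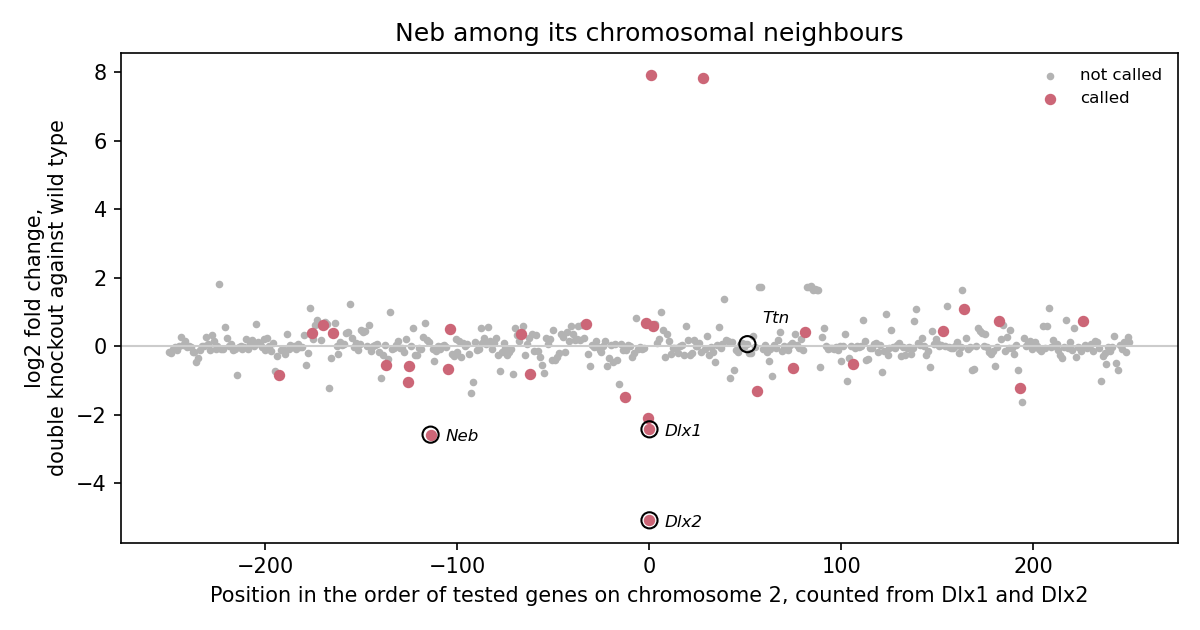
Log2 fold change, double knockout against wild type (vertical axis), of tested genes on chromosome 2 by their place in the gene order counted from Dlx1 and Dlx2 (horizontal axis, no distance implied), with called genes as larger coloured points and Dlx1, Dlx2, Neb and Ttn ringed. Neb lies at -2.58 and Ttn at 0.06. Most genes shown were not called, as was so over all tested genes.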

How the data were processed

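The authors deposited unnormalised counts of reads for each gene and library, made with featureCounts on build GRCm39, per the submitters' processing notes. The aligner, the annotation release and the strand and multi-mapping settings are not given in the sources used here. RNA was prepared with a stranded total RNA kit, per the labels' protocols.

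Genes were filtered with filterByExpr (minimum count 10, minimum total 15), scaled by TMM and tested with the quasi-likelihood test of edgeR 4.0.16 in R 4.3.3, with a prior count of 0.125 and Benjamini-Hochberg adjustment over 23628 genes. A gene was called at an adjusted p under 0.05. SE and 95% intervals came from the fold change and its F statistic. The fit was tested on simulated data. No 2 libraries held identical counts, and all pairs differed beyond sampling noise. By mean chi-square per gene, double knockout replicate 3 differed from replicates 1 and 2 by 25.3 and 20.9. Replicates 1 and 2 of the double knockout differed by 9.57, and pairs of wild-type libraries by 14.5 to 15.6. Pairs of unlike genotype differed by 22.3 to 42.4. Exon lengths, overlaps and gene order came from GENCODE M21, an annotation of another build (GRCm38), so no coordinates are given. It held 98.7% of tested genes. No promoter sequence of Neb was used here.

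The members and lists were chosen with earlier results of these data known. Named genes were the members, Dlx1 and Dlx2, the called and the 3 most counted genes of each sarcomere and actin list, the called (up to 5) and the most counted gene of each marker list, the genes closest to Neb and the nearest tested neighbours of members, not all of which are given. Nrap, Tmod3 (also a neighbour of Tmod2), Wasl, Tpm3, Flnc, Synpo2l, Casq1, Chrng, Atp2a1 and Chrna1 were named after their values were seen. Gene order replaced planned windows of distance for chromosome 2. One erythroid marker, Ahsp, was not matched.

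Alternatives were other scalings, omitting the filter, filtering at a mean of 1 CPM, DESeq2 1.42.0, limma-voom (limma 3.58.1), the replicate number as a block, Y-linked expression as a covariate and leaving out each library.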

Additional observations from a re-analysis of the deposited data

How the results depend on the processing

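The log2 fold change of Neb ranged from -2.63 to -2.50 over 14 alternatives, including -2.58 with the replicate block. The changes in value of Ttn, Actn2 and Tmod1 without single libraries are given with those genes, and none of these 3, Nebl or Tmod2 was called in any alternative in which it was tested. Over all tested genes, 634 were called (317 higher, 317 lower), against 1162 with DESeq2, 358 with Y-linked expression as a covariate, 275 at an adjusted p under 0.01 and 309 to 749 without 1 library, lowest without wild-type replicate 1 and above 634 only without double knockout replicate 3. Scaling by total count called 646 (390 higher, 256 lower), 60.4% higher in place of 50%. The Z-disc list had 1 call, against 2 without a filter and 3 with DESeq2, where Flnc and then Synpo2l were added, 2 with the replicate block, and 0 to 2 without 1 library (0 without wild-type replicate 2 or double knockout replicate 1, and 2, with Flnc, without double knockout replicate 3). The thin filament list had 0, and 0 to 1 without 1 library, the gene being Tpm3 without double knockout replicate 2. The cause was not tested. Labels give both groups the numbers 1 to 3 but no shared litter, and libraries of the same number correlated in their deviations from the genotype mean at -0.07, 0.00 and 0.00 over all tested genes, so the numbers were not taken as pairs. With that replicate block 690 genes were called. The filter at a mean of 1 CPM left no value for Actn2 and Tmod1. Actn2 and Tmod1, with the fewest reads and the widest log2 spread between libraries of the 6 genes, had the widest intervals.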

Other observations

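Tpm3, which encodes a tropomyosin of thin filaments and of the non-muscle cytoskeleton, was singled out after its values were seen. Its 3 wild-type libraries lay close together at 76.8, 79.7 and 79.05 CPM, and the double knockout libraries were at 118.3, 71.2 and 174.9 CPM. The spread between double knockout libraries thus exceeded the difference between genotypes, at a log2 fold change of 0.63 (SE 0.257; edgeR adjusted p 0.332). Without double knockout replicate 2 the log2 fold change was 0.90, with an edgeR adjusted p of 0.0224. Flnc, the muscle filamin gene of the Z-disc list, averaged 2.99 ± 0.317 CPM in wild-type and 5.50 ± 1.91 CPM in double knockout libraries (SD, n = 3), with an edgeR adjusted p of 0.152, and of 0.00264 without double knockout replicate 3.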
